A study of Leptinotarsa decemlineata with 61 samples.

Results

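L2 and L1 whole larvae of the Colorado potato beetle (Leptinotarsa decemlineata) were compared across all genes of the atlas. L2 is the second larval instar and L1 the first. The groups were 3 L2 libraries (replicates 1, 4 and 5) and 3 L1 libraries (replicates 1, 2 and 5), 6 of the 61 libraries of the series, chosen by their titles and library names alone. Every library of both stages came from the whole bodies of 3 pooled larvae of the E06 strain, labelled wild type and untreated, raised in a climate chamber on potato leaves. The sources used here give neither the age of the larvae within their instar nor whether pools came from separate clutches, so p-values measure the spread between these pools. The submitters' tissue field names larval hemolymph for the L2 libraries and hindgut for the L1 libraries, against their titles. The titles were followed. Most markers of midgut, fat body and malpighian tubules were present in all 6 libraries, as given with the tissue lists. So were 9 of 10 hindgut and 8 of 10 hemolymph markers. In L2, 2 hindgut markers were higher and 5 lower, and 6 hemolymph markers were higher and 0 lower. The median log2(TPM + 1) of the hemolymph list was 1.013 to 1.306 in L2, against 5.949 to 6.378 in the hemolymph libraries. For the hindgut list it was 2.268 to 2.429 in L1, against 5.308 to 6.293 in the hindgut libraries. Fertilized eggs (3 libraries of 5 pooled eggs) and L3 larvae (3 libraries of 3 pooled larvae) of the same series served as the stages on either side.

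An insect larva grows within a cuticle that it sheds at each moult, and an instar is the interval between moults. Each moult is driven by a pulse of ecdysteroid hormone, while juvenile hormone keeps the next stage larval. Genes for cuticle proteins, for enzymes that build and digest chitin, and for the gut and fat body that support feeding are known to be switched on and off within each cycle. No identifier of the expression table could be paired with a named gene, so genes are described by identifier, position, structure and the tissues in which they were highest, and no sequence is shown.

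The libraries held similar numbers of read pairs, 16156811 to 16614830 in L2 and 14267128 to 16772098 in L1. Values are in TPM, a unit that corrects for gene length and depth, and at the median gene length of 1209 bp 1 read pair was worth between 0.0539 and 0.0623 TPM. Between 10365 and 10462 genes exceeded 1 TPM in the L2 libraries and 10415 to 10636 in the L1 libraries. The 10 most abundant genes took 8.564% to 12.46% of the TPM in L2 and 9.911% to 10.22% in L1. No library repeated the values of another.

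The libraries separated by stage. On log2(TPM + 1) over all 15578 genes, the distance between an L2 and an L1 library averaged 113.4 ± 12.3 (SD, n = 9 pairs), while it averaged 72.54 ± 9.88 within L2 and 43.04 ± 0.779 within L1 (SD, n = 3 pairs each). The mean distance between stages exceeded that within stages by 55.59. This was the largest of the 10 possible splits into 3 and 3, which gives p = 0.1 in a one-sided exact permutation test, the smallest value that 3 against 3 libraries allow. Among all 61 libraries, the closest neighbour of each of the 6 was a library of its own stage. Distances to L3 averaged 158.8 ± 15.6 for L2 and 163.3 ± 15.7 for L1 (SD, n = 9 pairs each), a gap smaller than their SD. That SD includes the spread among the L3 libraries, which both averages share. L2 replicates 1 and 5 were closer to each L3 library than any L1 library was. For L3 replicate 3 they were at 167.8 and 169.6, against 179.3 to 183.2 for L1. L2 replicate 4 was not, at 181.9, 171.4 and 158.4 from L3 replicates 3, 4 and 5. Distances to eggs averaged 225.2 ± 8.59 for L2 and 240.8 ± 8.03 for L1 (SD, n = 9 pairs each).

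L2 replicate 4 stood apart from the other L2 libraries. It lay at 128.9 ± 3.51 from the L1 libraries (SD, n = 3 pairs), against 105.6 ± 4.75 for L2 replicates 1 and 5 (SD, n = 6 pairs). The typical gene varied about as much in both stages, with a median SD of 0.16 in L2 and 0.151 in L1 on the log2 scale. A range of at least 2 on that scale was however found for 410 genes in L2 and 51 genes in L1, and L2 replicate 4 was the outlying library for 243 of the 410. Counts below are therefore also given without L2 replicate 4 where they depended on it.

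More genes were higher than lower in L2, but large differences ran somewhat more often downward. Of 11056 genes that exceeded 1 TPM in 2 or more of the 6 libraries, 3105 (28.1%) differed at an adjusted p under 0.05 in a limma fit on log2(TPM + 1), 1895 (17.1%) higher and 1210 (10.9%) lower in L2. Of these, 516 genes (4.67% of those tested) were higher and 617 (5.58%) lower in L2 by at least 1 on the log2 scale, a change of about 2 times or more in genes well above 1 TPM. Together these were 1133 genes (10.2%). L2 and L1 values were fully apart for 5286 genes (47.8%), with L2 above L1 for 3370 (30.5%) and below it for 1916 (17.3%). A further 4024 genes of the table were at 1 TPM or less in all 6 libraries.

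The direction of small differences depended on the scaling of the libraries. The median difference over all tested genes was 0.106 towards L2, and 0.00863 after rescaling by median-of-ratios factors. On the rescaled values 1429 genes were higher and 1536 lower in L2, so that the share higher among called genes was 61% as deposited and 48.2% rescaled. All 1133 genes called with a difference of at least 1 kept their sign after rescaling, and 1118 of them were called again in the same direction. Without L2 replicate 4, 1592 genes were higher and 1190 lower, and 1099 of the 1133 were called in the same direction. The total called in either direction was 1752 genes without L1 replicate 5 and 2044 without L1 replicate 1. Without L2 replicate 5 the genes higher in L2 numbered 1139.

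**Figure D1:**
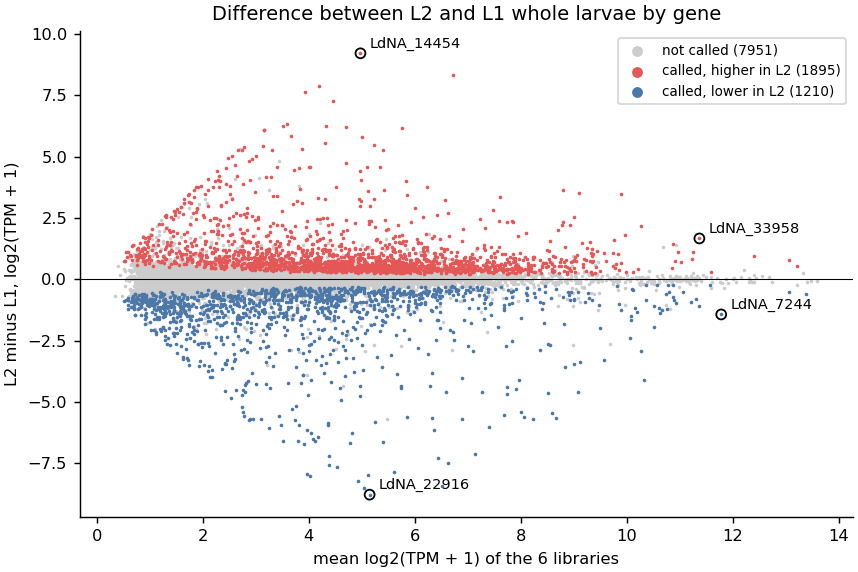
Difference L2 minus L1 (log2 scale) against mean level over the 6 libraries (log2(TPM + 1)) for the 11056 tested genes; red points are the 1895 genes called higher in L2, blue points the 1210 called lower, grey points the 7951 not called, and circles mark the 4 genes described in the text. Differences reached 9.22 upward and 8.78 downward, and most called genes lay within 1 of zero.

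The gene with the largest rise was LdNA_14454, a gene of 537 bp with 3 exons on the minus strand of chromosome 7 (16261357 to 16273299). It stood at 390.4, 1768 and 654.3 TPM in L2 replicates 1, 4 and 5, against 0.1402, 0.5218 and 0.2428 TPM in L1 replicates 1, 2 and 5. The L1 values rest on 1, 4 and 2 read pairs, so the gene was near the limit of detection in every L1 library and among the abundant ones in every L2 library. The difference was 9.22 ± 0.518 (SE) on the log2(TPM + 1) scale with an adjusted p of 0.000185 by limma. This size depends on the pseudocount because L1 was so low, and was 6.24 with a pseudocount of 10. In eggs it stood at 507.3, 1161 and 226.1 TPM and in L3 at 0.5507, 0.4015 and 0.719 TPM. It was thus high in eggs and L2 and low in L1 and L3, and outside the whole-body libraries its highest median was 1.29 TPM, in ovaries.

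LdNA_33958 was the most abundant gene among those that rose by at least 1. It has 538 bp in 4 exons on the minus strand of chromosome 18 (18502822 to 18507990). It stood at 6182, 3545 and 4847 TPM in L2 (mean 4858 ± 1320, SD, n = 3), against 1987, 1281 and 1290 TPM in L1 (mean 1519 ± 405, SD, n = 3). The lowest L2 library was above the highest L1 library, and the ratio of the means was 3.2. The difference was 1.67 ± 0.253 (SE) with an adjusted p of 0.00517 by limma. In a fit that took its spread from the L3 libraries as well, the adjusted p was 0.243. L3 libraries ranged widely, at 436.1, 1239 and 6193 TPM, and eggs held 212.5, 210.8 and 146.6 TPM. Its medians elsewhere were 9105 TPM in adult midgut and 5216 TPM in L4 midgut, the tissues in which it was highest.

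The gene with the largest fall was LdNA_22916, a gene of 702 bp with 2 exons on the minus strand of chromosome 11 (43845247 to 43846111). It stood at 1.645, 0.4082 and 0.3064 TPM in L2 replicates 1, 4 and 5 (17, 4 and 3 read pairs), against 656.4, 680.7 and 918.7 TPM in L1 replicates 1, 2 and 5. Its difference was −8.78 ± 0.29 (SE) with an adjusted p of 2.57e-05 by limma, and the size was −6.13 with a pseudocount of 10. Eggs differed among themselves, at 202.4, 0 and 38.1 TPM, and L3 held 2.212, 7.985 and 11.44 TPM. Among the dissected tissues only genital ducts gave a median above 0, at 0.6183 TPM, so the gene was abundant in L1 and in 2 of the 3 egg libraries and in no dissected tissue. It lies in the longest run of neighbouring genes described below, so its own share of the reads there is uncertain.

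LdNA_7244 was the most abundant gene among those that fell by at least 1. It has 1119 bp in 4 exons on the minus strand of chromosome 3 (59794902 to 59801898). It stood at 2226, 2069 and 2167 TPM in L2 (mean 2154 ± 79.2, SD, n = 3), against 4935, 6073 and 6469 TPM in L1 (mean 5826 ± 797, SD, n = 3). The L2 libraries were closely grouped at 0.37 of the L1 mean, and the stages did not overlap. The difference was −1.43 ± 0.112 (SE) with an adjusted p of 0.000635 by limma, and 0.205 in the fit that included L3. Eggs held 0.06569, 0 and 0 TPM, and L3 held 192.1, 803.8 and 1607 TPM, so the mean level was highest in L1 and lower in L2 and L3. Elsewhere its median was 3623 TPM in adult midgut, 97.65 TPM in hemolymph and 23.36 TPM in L4 midgut.

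**Figure D2:**
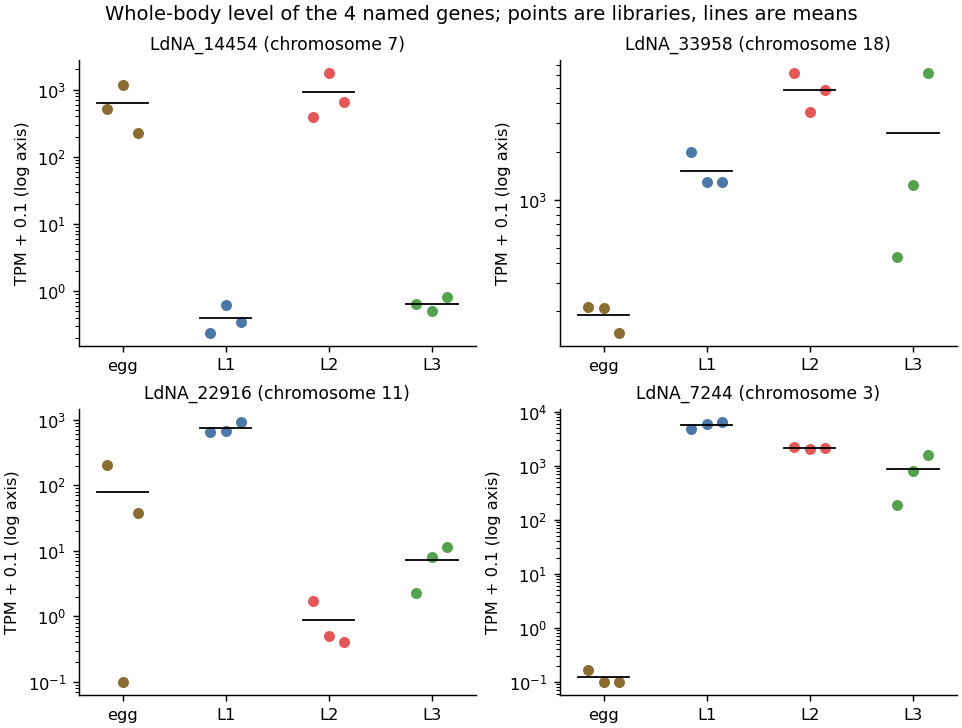
Level of the 4 named genes in the egg, L1, L2 and L3 whole-body libraries, as TPM + 0.1 on a log axis; points are libraries and lines are stage means. LdNA_14454 was at 390.4 to 1768 TPM in L2 and under 1 TPM in L1 and L3, LdNA_22916 was under 2 TPM in L2 and at 656.4 to 918.7 TPM in L1, and the L2 mean was 3.2 times the L1 mean for LdNA_33958 and 0.37 times for LdNA_7244.

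Some of the genes that fell lay side by side on a chromosome. Taking runs of at least 5 neighbouring tested genes called in the same direction, 14 runs with 101 genes were lower in L2 (8.35% of the genes called lower) and 10 runs with 55 genes were higher (2.91% of those called higher). The longest run had 15 genes among those lower and 6 among those higher. Leaving out 1 library gave 8 to 12 lower runs and 1 to 7 higher runs, with 2 or fewer higher runs without L2 replicate 5, L1 replicate 2 or L1 replicate 5, and rescaling gave 15 and 4. Genes in such arrays can be near-identical copies, and the library kit did not mark strand. Reads may therefore be assigned to the wrong member or left uncounted, and the value of a single member is uncertain. Sums over a run avoid wrong assignment between its members, but not the loss of reads.

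The longest run spanned chromosome 11 from 43673487 to 43846111 and held 15 genes with 2 to 3 exons and lengths of 519 to 1350 bp, LdNA_22916 among them. Its summed level was 267.1, 11.53 and 105.8 TPM in L2 replicates 1, 4 and 5, against 8561, 8731 and 10700 TPM in L1 replicates 1, 2 and 5. Every one of the 15 genes in this span was called lower, by 2.66 to 8.78 on the log2 scale, with adjusted p of 4.66e-06 to 0.0321. The sums were 579.5, 2.041 and 217.8 TPM in eggs and 488.5, 1796 and 1523 TPM in L3. All 3 L1 libraries were thus above every egg, L2 and L3 library. Of the 15 genes, 13 had medians of at most 1 TPM in each of the 9 dissected tissues, and 8 were enriched in L3 over those tissues.

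A second run of 15 genes lay on chromosome 14 between 19542158 and 19638185, with 16 genes of the table in that span. Its members were all short, at 252 to 309 bp, and all had 2 exons. Their sum was 28.29, 27.57 and 86.28 TPM in L2, against 2974, 2884 and 3602 TPM in L1. It was 16920, 1.555 and 1214 TPM in eggs and 16.56, 24.51 and 83.84 TPM in L3. L2 and L3 were alike in being low, L1 was uniformly high, and the egg libraries differed from each other far more than any larval stage did.

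Other runs that were lower in L2 stayed abundant there. A run of 9 genes on chromosome 11 (16321680 to 17550523) summed to 3035, 367.3 and 1837 TPM in L2, against 17030, 16450 and 18470 TPM in L1. Eggs held 8.604, 4.349 and 4.76 TPM in sum and L3 held 3871, 7029 and 6309 TPM, so this run was high in the larval stages alone among these libraries. Its lowest larval library was L2 replicate 4, which was also the lowest of the L2 libraries in the longest run. Of its 9 genes, 3 were on the aedeagus list and 2 on the testes list described below, although larvae have no aedeagus. Another abundant run lay on chromosome 8 (24163845 to 24232106), where 6 genes summed to 5653, 3048 and 4976 TPM in L2, against 9538, 11480 and 10390 TPM in L1.

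Chromosome 18 carried 3 of the 14 lower runs. The largest of them, 7 genes between 7258380 and 7489140, summed to 64.77, 20.6 and 47.85 TPM in L2, against 1790, 2115 and 2272 TPM in L1. Of the 313 tested genes of this chromosome 34 (10.9%) were higher and 59 (18.8%) lower in L2, beside 17.1% and 10.9% over all tested genes. By at least 1, 36 (11.5%) were lower, beside 5.58% over all tested genes. The 7, 6 and 6 genes of the 3 runs are all among these 36, so the share of the chromosome partly repeats the runs. Its median difference was −0.0155, below the range of 0.0784 to 0.142 over the other 17 chromosomes. No test was made over chromosomes.

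The runs higher in L2 had at most 6 genes, with median differences of 0.495 to 2.5 on the log2 scale. Of the runs of 6 genes, the one with the largest sum of log2 differences lay on chromosome 9 (39048580 to 39454509), and its level summed to 167.9, 425.5 and 181.9 TPM in L2, against 32.83, 37.51 and 8.202 TPM in L1. L2 replicate 4 was the highest library there, and the eggs, at 177.6, 273 and 125 TPM, were also above L1. A run of 6 genes on chromosome 13 (14995366 to 15184288) summed to 158.5, 161.8 and 147 TPM in L2, against 36.73, 38.06 and 29.73 TPM in L1, and every L3 library was higher, at 725.6, 356.8 and 193.7 TPM. The most abundant of the higher runs in L2, 6 genes of 261 to 470 bp on chromosome 10 (49892438 to 49925854), summed to 5256, 6299 and 4933 TPM in L2, against 3423, 3060 and 2784 TPM in L1. It followed the order of the stages, with 916.2, 687.3 and 961.9 TPM in eggs and 11660, 10050 and 10500 TPM in L3.

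**Figure D3:**
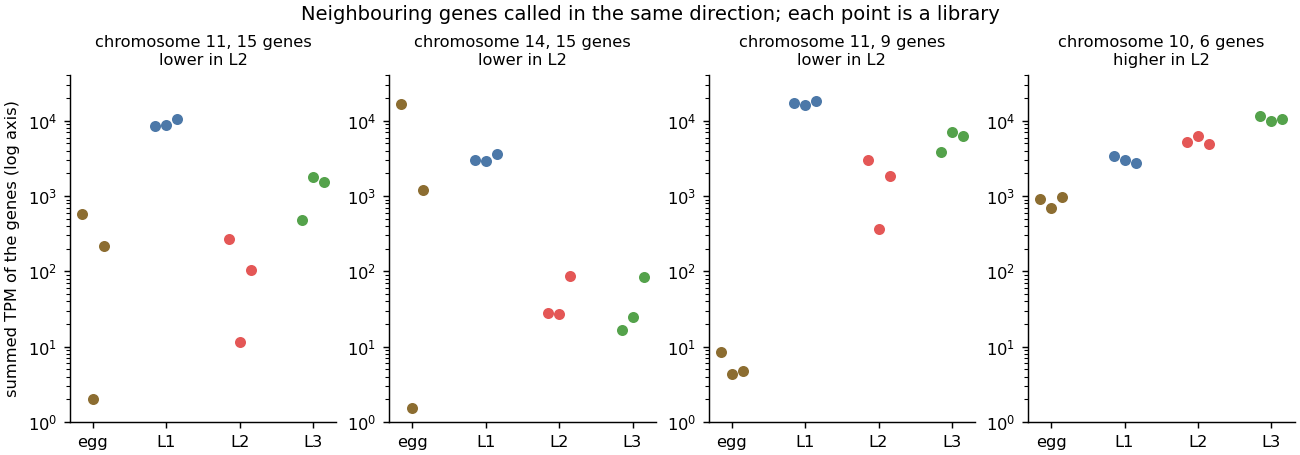
Summed TPM (log axis) of 4 runs of neighbouring genes in egg, L1, L2 and L3 libraries; each point is a library. In the 3 runs lower in L2 every L2 library lay below every L1 library (11.53 to 267.1 TPM in L2 and 8561 to 10700 TPM in L1 for the chromosome 11 run of 15 genes), while the chromosome 10 run rose through the stages.

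Genes that fell were short more often than the tested genes at large. Of the shortest quartile of the tested genes (162 to 777 bp), 10.1% were lower in L2 by at least 1, and the share was 6.01%, 4.09% and 2.14% in the next quartiles up to genes of 2491 bp and more. For genes higher by at least 1 the shares were 6.03%, 5.43%, 4.2% and 3.01%. The median length was 1159.5 bp for the 516 genes higher by at least 1 and 888 bp for the 617 lower, against 1465 bp over all tested genes. By mean level, 28.3% of the most abundant quartile and 9.01% of the least abundant one were called higher in L2. The shares called lower were 11.4% and 12.6%. Over all tested genes 17.1% were higher and 10.9% lower. No test was made over these classes.

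To place these genes in the body, they were set against lists of genes drawn from the 9 dissected tissues of the atlas, from 47 libraries that include no L1 or L2 larva. A gene was put on the list of the tissue where its median was highest if it was strongly concentrated there (tau above 0.85, where 1 means a single tissue) and above 10 TPM. In whole-body libraries, fewer cells of a type and less RNA per cell cannot be told apart. Of the 10 most abundant list genes of each tissue, all 10 exceeded 1 TPM in all 6 larval libraries for midgut and 9 of 10 for fat body, malpighian tubules and hindgut. A list member near 1 TPM passes the filter mainly through the stage where it is high, so counts over tested members describe them and carry no further support. For ovaries and testes 4 of 10 were at 0 in all 6 libraries and the median was at or near 0.

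Genes of hemolymph, the circulating fluid with its blood cells, were higher in L2 more often than lower. Of the 90 on the list 51 were tested, of which 21 (41.2%) were higher and 2 (3.92%) lower, beside 17.1% and 10.9% over all tested genes. The median difference was 0.61, against 0.11 over all genes, but it was 0.19 at a pseudocount of 10 and 0.28 without the filter on low values. Their summed level was 689.9, 812.5 and 947.8 TPM in L2, against 361.3, 317.3 and 370.7 TPM in L1. L3 libraries held 26350, 14240 and 1566 TPM and eggs 392.6, 563.6 and 384.4 TPM. Of the 10 most abundant hemolymph genes 6 were called higher and none lower, with a median over them of 5.87, 7.76 and 8.83 TPM in L2 against 2.97, 3.04 and 3.93 TPM in L1. The number called higher was 6 in the fit that included L3, and 12, 13 and 11 without L1 replicates 1, 2 and 5.

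The fat body, the insect organ of metabolism and storage, had a short list, with 24 of 30 genes tested. Of these 8 (33.3%) were higher and 1 (4.17%) lower in L2, beside 17.1% and 10.9% over all tested genes. After rescaling 5 were higher and 2 lower. The median difference was 0.11, the same as over all genes, and the sums overlapped, at 429.1, 423.1 and 521.2 TPM in L2 against 462.6, 437.3 and 506.1 TPM in L1. Leaving out a library other than L2 replicate 4 left 4 or 5 genes higher, and without L2 replicate 1 there were 2 lower.

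Genes of the midgut, the site of digestion and absorption, were lower more often than higher. Of 333 tested genes 37 (11.1%) were higher and 79 (23.7%) lower, beside 17.1% and 10.9% over all tested genes, with a median difference of −0.17. In the fit that included L3 these counts were 9 and 26. Their sum was 143700, 120200 and 145300 TPM in L2, against 158800, 156900 and 165000 TPM in L1, without overlap. The 10 most abundant midgut genes did not follow this, with an overlapping median of 4480, 4120 and 4460 TPM in L2, against 3930, 4250 and 3850 TPM in L1, and 2 of them were called higher and 2 lower. Of the 32 tested midgut genes with an L4 median at least 4 times the adult one, 14 (43.8%) were lower and 0 higher, and the median difference was −0.76. The number lower was 6 in the fit that included L3, and the median was −0.39 at a pseudocount of 10. The median log2 level of this sublist was 3.325, 3.306 and 3.275 in L2, against 4.513, 4.622 and 4.523 in L1, whereas L3 held 5.698, 5.728 and 4.708. Its summed TPM overlapped between the stages, at 5083, 3328 and 4690 in L2 and 4713, 4981 and 5163 in L1. Without L1 replicate 5 the number lower was 9, and without L1 replicate 1 there was 1 higher. For the 135 tested genes with an adult median at least 4 times that of L4, 23 were higher and 26 lower.

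Of the other gut organs, the hindgut, which reabsorbs water and ions, had 7 (12.5%) higher and 18 (32.1%) lower of 56 tested genes, beside 17.1% and 10.9% over all tested genes. Its 10 most abundant genes had a median of 14.2, 15.6 and 21.8 TPM in L2, against 65.2, 64.7 and 53.4 TPM in L1, but the sum over the list was 3164, 2807 and 3605 TPM in L2 and 3038, 3169 and 3114 TPM in L1, with overlap. The malpighian tubules, the excretory organs, had 18 (16.7%) higher and 15 (13.9%) lower of 108 tested genes, shares near those of all tested genes, but 14 higher and 17 lower after rescaling, and 8 lower without L1 replicate 5. Their 10 most abundant genes had a median of 229, 173 and 214 TPM in L2, against 141, 160 and 120 TPM in L1. The sum over the list ran the other way, at 5171, 5377 and 4372 TPM in L2, against 6063, 5943 and 5564 TPM in L1.

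Lists of the reproductive organs, which larvae do not have in mature form, also had more genes lower than higher in L2. Of 90 tested genes of the aedeagus, the sclerotized male intromittent organ, 14 (15.6%) were higher and 44 (48.9%) lower, 39 of them by at least 1, beside 17.1% and 10.9% over all tested genes. The median difference was −0.81, but −0.29 at a pseudocount of 10 and −0.23 without the filter. Their sum was 11960, 7859 and 11070 TPM in L2, against 19510, 19710 and 21180 TPM in L1. L3 held 19460, 19810 and 16690 TPM. The number higher was 9, 9 and 8 without L1 replicates 1, 2 and 5. The most abundant aedeagus genes were low in the larvae, at a median of 1.16, 0.683 and 0.903 TPM in L2 against 4.08, 2.3 and 3.84 TPM in L1 over the top 10. For testes 11 (13.8%) were higher and 27 (33.8%) lower of 80 tested from a list of 947. For ovaries 8 (14.3%) were higher and 21 (37.5%) lower of 56 tested from a list of 273. Without the filter the median difference was 0 for both lists. The sums ran in opposite directions. For testes it was 3050, 1963 and 2681 TPM in L2, against 8297, 8225 and 8533 TPM in L1. Most of this fall lay in 2 neighbouring genes of the chromosome 11 run of 9 genes. LdNA_21989 held 53.64, 5.89 and 23.98 TPM in L2, against 1321, 1298 and 1486 TPM in L1. LdNA_21990 held 904.6, 160.6 and 626.9 TPM in L2, against 3459, 3225 and 3525 TPM in L1. For ovaries the sum was 2368, 4324 and 2868 TPM in L2, against 1290, 1298 and 1382 TPM in L1, higher in L2 without overlap. Without L1 replicate 2 the numbers lower were 14 for testes and 13 for ovaries, and without L1 replicate 5 it was 15 for testes. Ovary genes higher numbered 3 without L2 replicate 5 or L1 replicate 1, and testis genes higher 7 without L1 replicate 1. Genital ducts had 3 (9.68%) higher and 8 (25.8%) lower of 31 tested, and 4 or 5 lower without L2 replicate 1, L1 replicate 1 or L1 replicate 5. Genital duct genes higher numbered 1 without L2 replicate 4, L2 replicate 5, L1 replicate 1 or L1 replicate 5.

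**Figure D4:**
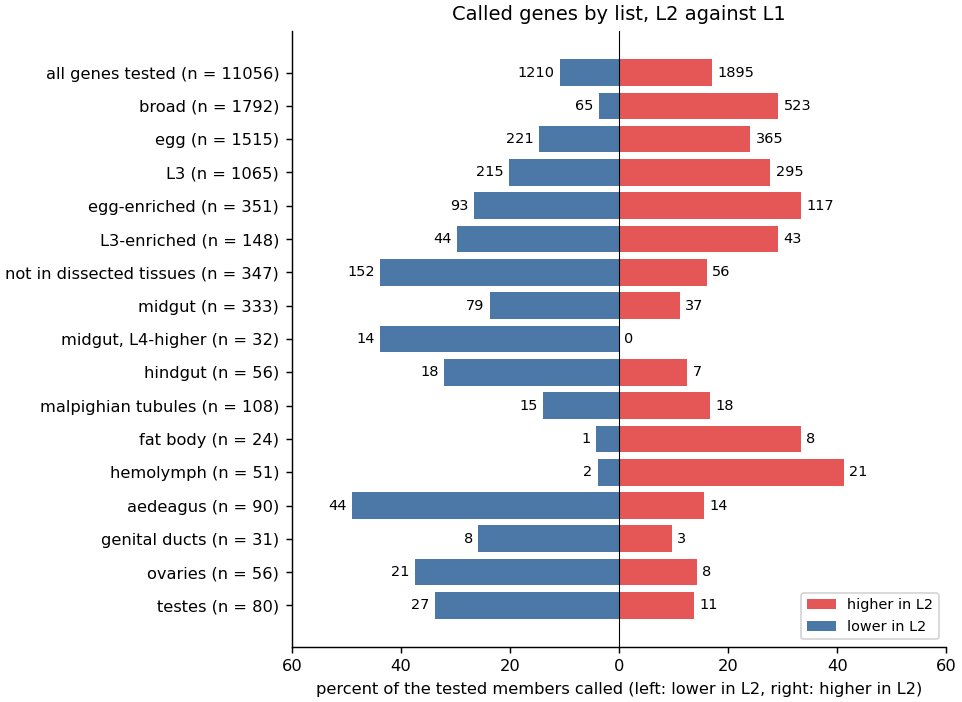
Percent of the tested members of each list called higher (red, right) or lower (blue, left) in L2 against L1, with the number of genes beside each bar and all tested genes at the top. Hemolymph (41.2%) had the highest share called higher, and aedeagus (48.9%), the L4-higher midgut genes (43.8%) and genes not in dissected tissues (43.8%) the highest shares called lower.

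Genes near absence in every dissected tissue were lower in L2 more often than higher. Of 1559 genes with a median of at most 1 TPM in all 9 tissues 347 were tested, and 56 (16.1%) were higher and 152 (43.8%) lower, beside 17.1% and 10.9% over all tested genes. The median difference was −0.63, but −1.15 and −0.11 at pseudocounts of 0.1 and 10, and 0 without the filter. Their sum was 18890, 23150 and 16080 TPM in L2, against 40140, 42360 and 45500 TPM in L1, and 24310, 25220 and 23230 TPM in L3. This list held 126 (20.4%) of the 617 genes lower by at least 1 and 51 (9.88%) of the 516 higher by at least 1, against 3.14% of all tested genes. Members of the runs of neighbouring genes are among the 126, with 13 from the longest run and 8 from the chromosome 14 run. The value of such single members is uncertain, as said there. The number higher was 34 without L1 replicate 1 or L1 replicate 5. Genes above 10 TPM in every tissue library behaved otherwise, with 523 (29.2%) higher, 65 (3.63%) lower and a median difference of 0.16 over 1792 genes. Their share higher was near that of the most abundant quartile of all tested genes, where 28.3% were higher and 11.4% lower. Only 16 and 6 of the 1792 genes moved by at least 1, and after rescaling 342 were higher and 131 lower. In the fit that included L3, 101 were higher and 17 lower. The number higher was 290 without L2 replicate 5, and 311 and 247 without L1 replicates 1 and 5. The number lower was 42 and 37 without L1 replicates 2 and 5.

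Genes shared with the egg moved in both directions. The egg-enriched list holds 414 genes whose egg median was at least 4 times that of any dissected tissue. Of its 351 tested genes 117 (33.3%) were higher and 93 (26.5%) lower in L2, and 109 (31.1%) and 77 (21.9%) of them moved by at least 1. Over all tested genes the shares were 17.1% and 10.9%, and 4.67% and 5.58% by at least 1. The balance was not stable, with 82 higher and 92 lower at a pseudocount of 10, 77 higher without L1 replicate 1 and 74 higher without L1 replicate 5. The median log2 level was 1.678, 3.404 and 2.028 in L2 replicates 1, 4 and 5, against 1.519, 1.668 and 1.661 in L1 replicates 1, 2 and 5. L2 replicate 4 was the highest, and its sum of 42410 TPM set it apart from 19920 and 20210 TPM in L2 replicates 1 and 5 and from 20740 to 22870 TPM in L1. Without it the median difference was 0.17, against 0.54 with it, and 133 genes were higher and 109 lower.

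Wider lists, set only by a ratio of at least 4 between eggs and L3, leaned upward as deposited. So did all tested genes, with 17.1% higher and 10.9% lower, so the lean is not particular to these lists. The egg list had 365 (24.1%) higher and 221 (14.6%) lower of 1515 tested genes, and the L3 list 295 (27.7%) higher and 215 (20.2%) lower of 1065. By limma-voom on recovered read pairs the counts were 254 and 267 for the egg list and 243 and 254 for the L3 list, while after rescaling they were 310 and 262, and 258 and 241. For the egg list 213 and 194 genes were higher without L1 replicates 1 and 5, and for the L3 list 139 were lower without L1 replicate 5.

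The L3-enriched genes, chosen in the same way as the egg-enriched ones, were called higher and lower about equally often. Of 148 tested, 43 (29.1%) were higher and 44 (29.7%) lower in L2, beside 17.1% and 10.9% over all tested genes. Both shares were thus above those of all genes, which had more genes higher than lower. The median difference was 0.03, against 0.11 over all genes. Without L2 replicate 4 there were 50 higher and 44 lower. There were 28 higher without L1 replicate 1, and 27 higher and 29 lower without L1 replicate 5. The sum was 140300, 86720 and 116600 TPM in L2, against 135400, 140500 and 139000 TPM in L1, and L2 replicate 4 was the lowest of the 6. In this library egg-enriched genes were therefore at their highest and L3-enriched genes at their lowest among the 6 libraries. Its part in the results was not tested beyond the counts given without it.

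**Figure D5:**
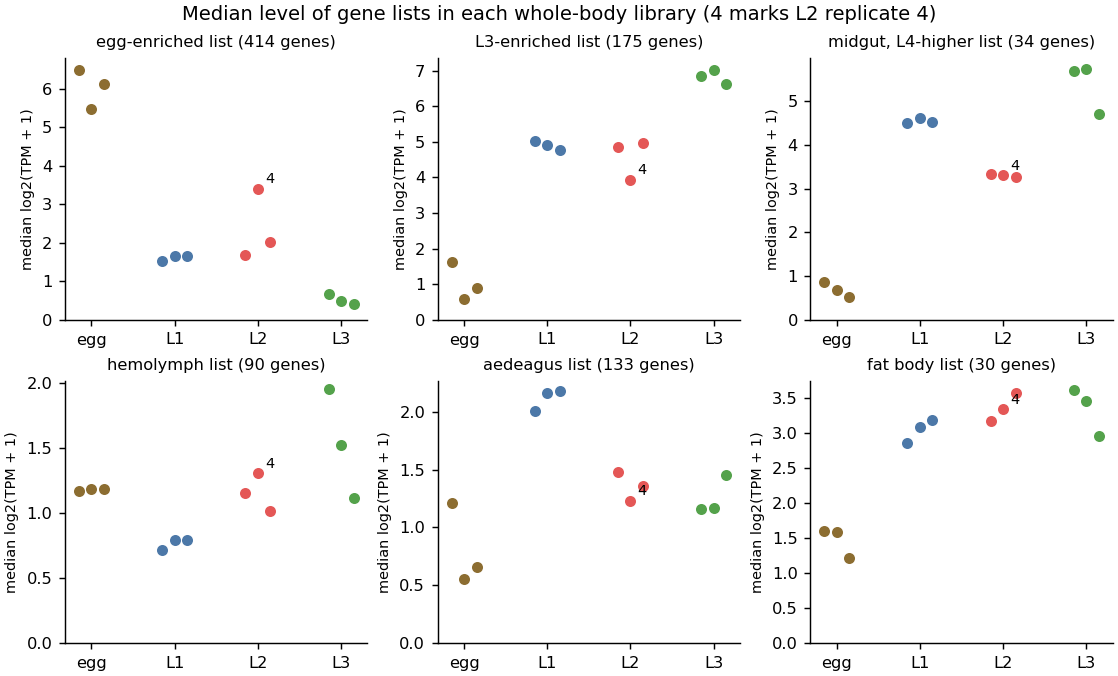
Median log2(TPM + 1) over the members of 6 lists in each egg, L1, L2 and L3 library, with L2 replicate 4 marked. Egg-enriched genes were at 3.404 in L2 replicate 4 and at 1.678 and 2.028 in the other L2 libraries, while the L4-higher midgut genes were at 3.275 to 3.325 in all 3 L2 libraries and at 4.513 to 4.622 in L1.

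Followed across the stages, genes higher in L2 by at least 1 had library medians of 3.87 to 4.09 in eggs, 2.34 to 2.61 in L1, 4.37 to 5.08 in L2 and 3.32 to 3.71 in L3 on the log2 scale. Of these 516 genes 251 were at least 1 above L1 in eggs, 265 were at least 1 below L2 in L3, and 184 did both, as LdNA_14454 did. Over all tested genes this pattern was found for 571 (5.16%), against 35.7% of the 516. Genes lower in L2 by at least 1 had library medians of 1.27 to 3.01 in eggs, 4.27 to 4.59 in L1, 1.82 to 2.09 in L2 and 1.8 to 1.94 in L3. Of these 617 genes 375 (60.8%) were at least 1 lower in eggs than in L1, beside 16.6% of all tested genes. In L3 385 (62.4%) were within 1 of L2, no more than the 69.1% of all tested genes. These patterns share the L1 and L2 values with the comparison and are descriptions.

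The contrast of L3 with eggs shares no library with that of L2 with L1. Over 12024 tested genes 8827 (73.4%) differed, of which 1834 (15.3%) were higher and 6993 (58.2%) lower in L3, a split that depended on scaling, since after rescaling 3063 (25.5%) were higher and 2991 (24.9%) lower. Of the 503 genes higher in L2 by at least 1 and tested there, 210 (41.7%) were higher and 221 (43.9%) lower in L3 than in eggs as deposited, and 232 (46.1%) and 180 (35.8%) after rescaling. Of the 547 genes lower in L2 by at least 1, 190 (34.7%) were higher and 190 (34.7%) lower as deposited, and 220 (40.2%) and 129 (23.6%) after rescaling. Over all genes of the L2 and L1 fit the shares were 15.9% and 57.1% as deposited, and 27.2% and 22.1% after rescaling. The shares higher were above those of all genes on both scales, while the shares lower were below those of all genes as deposited and above or near them after rescaling. Neither set ran in one direction only.

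The sample in which a gene was highest, L1 and L2 aside, differed between the sets. Eggs came first for 32.9% of the 516 genes higher by at least 1 and for 27.1% of the 617 lower, against 13.8% of all tested genes. L4 fat body (11%), hemolymph (10.9%) and adult fat body (8.53%) followed for the genes higher, where all tested genes gave 2.56%, 13.4% and 3.49%. For the genes lower, aedeagus (16.5%), L3 whole larvae (8.27%) and L4 midgut (7.29%) followed, where all tested genes gave 2.82%, 1.97% and 6.16%.

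A small set of genes was found in 1 stage only, taken as above 1 TPM in all 3 libraries of one stage and at most 3 read pairs in each library of the other. There were 51 such genes in L2 and 55 in L1. The limma fit called 45 (88.2%) and 54 (98.2%) of them, beside 28.1% of all tested genes. These calls use the same values that chose the genes, so they carry no further support. Of the 51 L2 genes 39 were above 1 TPM in eggs by their median and 13 in L3. Of the 55 L1 genes 27 were above 1 TPM in eggs and 9 in L3. These egg and L3 counts are given without a share over all genes and are descriptions. In the other stage 10 of the L2 genes and 13 of the L1 genes had no read pair at all, which at this depth allows up to 3 read pairs in each library and covers counting error only.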

How the data were processed

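RNA was extracted from pools of 3 whole larvae, enriched for poly(A) RNA and sequenced in read pairs without strand information. The authors trimmed reads with Trimmomatic, checked them with FastQC 0.11.9, mapped them with STAR to a chromosome-level assembly and counted read pairs per gene with featureCounts (Subread 2.0.5). The deposited values are TPM per gene for 61 libraries, with gene positions and lengths as deposited. Coordinates follow the deposited table, and no build name was found for it.

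The TPM values were converted to log2(TPM + 1). Genes that exceeded 1 TPM in 2 or more of the 6 libraries were tested with limma 3.58.1 (R 4.3.3), empirical Bayes with trend and no block, with Benjamini-Hochberg adjustment over all tested genes at 0.05. Figures were drawn with matplotlib 3.10.9 (Python 3.11.15). Read pairs were recovered from TPM and gene length, and 100% of values were whole within 0.01. No count model was fitted for the main result because the deposited unit is TPM. The fit was tested on simulated data for L2 against L1. Of 200 genes changed by 1 on the log2 scale among 10938 genes 47% were recovered, with 5 false calls. Of 200 changed by 2 among 10919 genes 85% were recovered, with 11 false calls. The simulation changed far fewer genes than were called in the real data, so these shares need not hold there. The depth of each library was 14267128 to 16772098 read pairs.

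Tissue lists left out 2 dissected libraries (hindgut female 5 and yellow fat body 4). Named genes were, in each direction, the called gene with the largest difference and the most abundant one with a difference of at least 1, both without overlap between stages, and at most 2 per direction because 0 identifiers matched the reference table. The runs described were the longest in each direction, and others were chosen after their values were seen. Members and lists were chosen with earlier results of these data known. Alternatives were the pseudocount, the filter, rescaling, list thresholds, leaving out each replicate, a fit with L3 and a replicate block.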

Additional observations from a re-analysis of the deposited data

How the results depend on the processing

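The 4 named genes kept their direction in all alternatives run, and LdNA_33958 and LdNA_7244 lost their call only in the fit with L3 (adjusted p by limma 0.243 and 0.205). With a pseudocount of 10, genes with a difference of at least 1 numbered 228 higher and 279 lower in L2. Of the genes that differ between L2 and L1, the fit on L1, L2 and L3 libraries called 1253, 592 higher and 661 lower. With the replicate number as a block (replicate block), 1557 genes were called, 837 higher and 720 lower, and 1402 of these were among the 3105. For the shared numbers 1 and 5 the correlation of deviations was 0.012 in both, against −0.031 to 0.046 for libraries of unlike number. This cannot show whether libraries of the same number shared a clutch or batch. In simulated data the block fit recovered 0 of 200 changed genes. The simulation changed far fewer genes than were called in the real data, so it does not measure how many this fit can find here. Leaving out 1 library in turn gave 1752 to 2782 calls, 957 to 1673 higher and 795 to 1190 lower. With a difference of at least 1 it gave 398 to 614 higher and 519 to 634 lower, and the separation of stages was 46.27 to 67.08. For L3 against eggs, leaving out 1 library gave 1571 to 2036 genes higher and 5639 to 7403 lower, and rescaling gave 3063 and 2991. Genes found in 1 stage only numbered 10 in L2 and 13 in L1 where no read pair was allowed in the other stage, and 18 and 20 with TPM above 5. limma-voom on recovered read pairs, chosen after seeing the data, called 2876 genes, 1326 higher and 1550 lower, and under it the egg-enriched list had 65 higher and 95 lower and the malpighian tubule list 14 and 18. edgeR and DESeq2 were not run, since the deposited unit is TPM. Near 1 TPM a value rests on few read pairs, so differences of low genes are the least precise.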
